A study of Homo sapiens with 6 samples.

Results

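Small nucleolar RNAs (snoRNAs) guide the chemical modification of ribosomal RNA, and most of them are cut out of the introns of longer host transcripts. Some hosts encode proteins of the ribosome or of translation, while others, the small nucleolar RNA host genes (SNHG), have spliced exons with little coding capacity. Many hosts begin with a terminal oligopyrimidine (TOP) tract, a C followed by a run of C and T at the first transcribed bases, which is known from messages of ribosomal proteins. Spliced host RNAs that reach ribosomes are known to be broken down by nonsense-mediated decay, so that their level depends on transcription, translation and decay together.

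The rows described here were long noncoding RNA rows of the deposited table whose symbol was SNHG and a number, other than SNHG14, or 1 of 9 further symbols. This rule took 35 of 60664 rows. Of these, 31 were snoRNA hosts: the SNHG rows, GAS5, ZFAS1, DANCR and EPB41L4A-AS1. The other 4, OIP5-AS1, MALAT1, NEAT1 and RMRP, are noncoding RNAs that do not host snoRNAs in their introns. TUG1, also named by the rule, carries the type protein-coding in the table and was therefore outside it; it is given once for comparison. A second RMRP row, of type ribozyme, was outside it too, and both RMRP rows held 0 counts in all 6 libraries.

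RNA was measured in H7 cells, a line of human embryonic stem cells, grown on Matrigel in mTeSR Plus medium. There were 3 control libraries, which the series also calls WT, and 3 libraries in which SAMD4A, a Smaug-type repressor that binds messages, was knocked down. The sources used here give neither the construct nor whether the knockdown line was 1 clone. TruSeq Stranded mRNA libraries select RNA by its poly-A tail, and RMRP and intron-derived snoRNAs lack one.

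Library totals ran from 19270688 to 21355171 counts. SAMD4A had log2 fold change -0.90 ± 0.07 (SE, edgeR adjusted p = 9.0e-08). Defining genes of pluripotent cells were present, with 12 of 12 tested and a summed level of 10203 to 10427 CPM (counts scaled to a library of 1000000, with TMM factors) in control and 11559 to 12153 CPM in knockdown. DNMT3B alone went from 1296 to 2728 CPM; of the 12 markers 5 rose and 4, NANOG, SALL4, LIN28B and PODXL, fell, with a median log2 fold change of -0.01. Knockdown replicate 1 stood apart: 8 neuroectoderm markers summed to 99.6 CPM there, to 3.31 and 2.32 CPM in knockdown replicates 2 and 3, and to 63.5 to 74.3 CPM in control. The 8 mesendoderm and endoderm markers summed to 3.97 to 4.71 CPM in control and 2.59 to 8.57 CPM in knockdown, and 8 fibroblast markers, mainly COL1A1 and COL1A2, with DCN at 0, to 357 to 396 and 309 to 331 CPM. Mitochondrial genes took 3.39% ± 0.08 of counts in control and 5.03% ± 0.14 in knockdown (SD over 3 libraries each). The part of these differences in the results below was not tested. Nothing in the labels says that replicates came from separate cultures, so p-values measure the spread between these libraries, which may be technical.

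The start regions of 10 hosts are printed first because they show what a TOP-type start looks like at the RefSeq starts of hosts that fell and of hosts that rose. Each line gives 60 bases from RefSeq (GRCh38.p14), 5′ to 3′ on the strand of the gene, from 35 bases before the annotated start to 25 bases from it. Capitals mark a C that lies within 5 bases of the annotated start together with the run of at least 4 C or T that follows it. The first 4 hosts fell in knockdown, the next 4 rose, and the last pair, with 1 fall and 1 rise, has no such tract in this window. RefSeq starts can differ from those of the deposited rows. The SNHG3 window spans the start of the overlapping gene RCC1 (28505943) and ends before the deposited SNHG3 start at 28505980. The SNHG1 window lies downstream of its deposited start at 62855953. For this pair the window thus does not describe the start of the counted row.
SNHG32, chr6:31834881-31834940, plus strand: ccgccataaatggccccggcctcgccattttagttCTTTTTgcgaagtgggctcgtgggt
SNHG8, chr4:118278727-118278786, plus strand: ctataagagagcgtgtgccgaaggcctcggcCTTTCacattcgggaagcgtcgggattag
SNHG12, chr1:28581849-28581908, minus strand: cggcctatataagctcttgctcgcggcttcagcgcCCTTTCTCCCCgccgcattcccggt
ZFAS1, chr20:49278607-49278666, plus strand: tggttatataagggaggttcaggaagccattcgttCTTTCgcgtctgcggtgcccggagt
SNHG4, chr5:139274066-139274125, plus strand: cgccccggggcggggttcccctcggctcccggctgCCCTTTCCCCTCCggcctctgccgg
SNHG19, chr16:2155334-2155393, minus strand: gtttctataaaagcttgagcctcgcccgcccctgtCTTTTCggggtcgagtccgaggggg
SNHG16, chr17:76557729-76557788, plus strand: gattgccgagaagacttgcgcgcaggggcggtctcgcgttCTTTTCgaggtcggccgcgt
DANCR, chr4:52712359-52712418, plus strand: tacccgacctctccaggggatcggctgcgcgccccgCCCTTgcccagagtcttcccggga
SNHG1, chr11:62855861-62855920, minus strand: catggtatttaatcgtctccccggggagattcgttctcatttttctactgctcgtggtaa
SNHG3, chr1:28505908-28505967, plus strand: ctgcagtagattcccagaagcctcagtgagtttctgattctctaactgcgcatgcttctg

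A window was found for 27 of the 31 hosts, and 13 of these (48.1%) held a tract near the start. Among all 35116 RefSeq windows of the same length the share was 21.1%. With the C required exactly at the annotated start, 7 hosts (25.9%) and 4.07% of all windows held one. Annotated starts vary between sources: the RefSeq window of GAS5 holds no tract, while 6 of its 29 transcripts in GENCODE 29 begin with one, as in this transcript start with the tract in capitals.
GAS5: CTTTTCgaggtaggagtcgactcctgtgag
In GENCODE 29, 39 of 271 host transcripts (14.4%) began with a tract, against 2.41% of all 206694 transcripts. These 39 transcripts came from 15 of the 31 hosts. The sources also disagree for other printed hosts: SNHG1 and SNHG3 each have 1 GENCODE transcript that begins with a tract, while SNHG32 and DANCR have 0. A match of letters describes the annotated start and does not show that a transcript begins there in these cells.

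The host RNAs did not move together. Of 25 hosts tested, 11 fell and 10 rose in knockdown, and 4 did not pass (edgeR quasi-likelihood test, Benjamini-Hochberg adjustment over 17258 genes, threshold 0.05). Over all genes 51.7% passed, 26.1% higher and 25.6% lower (4503 and 4423 genes). With library totals in place of TMM factors, 2704 genes were higher and 6410 lower, the median of all genes moved to -0.17, and 8 hosts were higher and 11 lower. Of the 2029 long noncoding RNA rows tested 33.7% passed, 11.8% higher and 21.9% lower. Where the mean level reached 5 CPM, 20 of 24 hosts passed, beside 61.9% of all genes (33.8% higher, 28.1% lower) and 61.0% of long noncoding RNA rows (28.2% higher, 32.8% lower). The groups did not overlap for 24 of 25 hosts, beside 58.3% of all genes, 42.8% of long noncoding RNA rows, and 66.7% and 64.5% of these where the mean reached 5 CPM. The median log2 fold change of the 25 hosts was 0.24, against -0.01 for all genes. It rested on single libraries and on the scaling: it was 0.08 without control replicate 2, 0.10 without knockdown replicate 1, 0.13 without knockdown replicate 3 and 0.08 with library totals. Regardless of direction, the median size of change of the 25 hosts was 0.79 against 0.33. In bulk RNA, fewer cells that carry an RNA and less of that RNA per cell cannot be told apart.

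The hosts that fell included the most abundant ones, so the share of all counts that went to hosts was lower. Their share of counts was 0.1985% ± 0.0036 in control libraries and 0.139% ± 0.0045 in knockdown libraries (SD over 3 libraries each), and the ranges did not overlap. By mean control CPM the most abundant hosts were SNHG1, SNHG29, GAS5 and SNHG17, which all fell, followed by DANCR, which rose. Per kilobase of exon the order of these control levels differed, with SNHG29 at 584 CPM per kb, GAS5 at 284, SNHG1 at 133 and SNHG6 at 103.

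**Figure D1:**
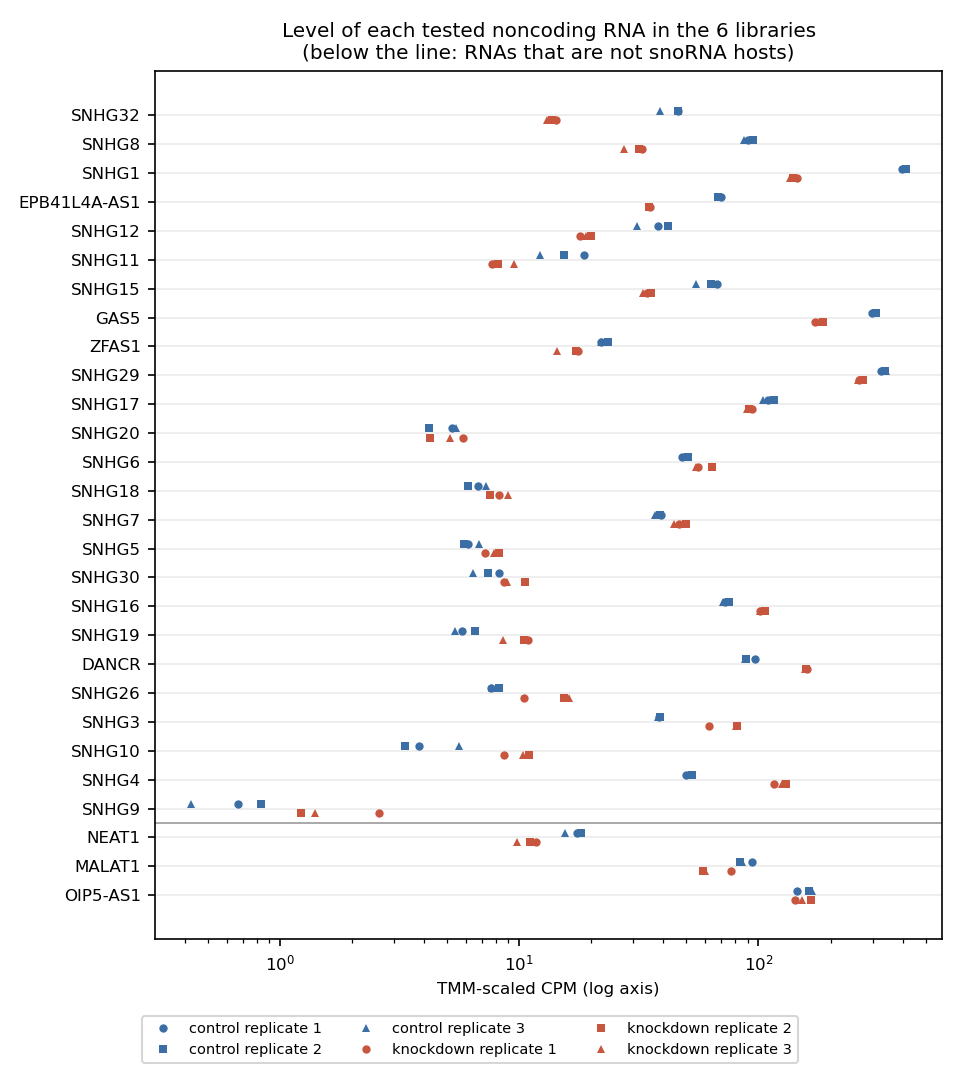
TMM-scaled CPM (log axis) of the 28 tested noncoding RNAs in each of the 3 control (blue) and 3 knockdown (red) libraries, with replicate numbers as symbols. The groups are apart for 24 of 25 hosts, to the left in knockdown for SNHG1, SNHG8 and SNHG32 and to the right for SNHG4, while OIP5-AS1 and SNHG20 overlap.

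SNHG1, SNHG8 and SNHG32 were the hosts that fell by more than 2 fold. SNHG1 (ENSG00000255717, chromosome 11, 62851984 to 62855953, minus strand, GRCh38), which carries a series of C/D box snoRNAs in its introns, was at 396, 414 and 408 CPM in control replicates 1 to 3 and at 145, 139.9 and 135 CPM in knockdown replicates 1 to 3. Every knockdown library lay far below every control library, and the knockdown libraries lay close to each other. Its log2 fold change was -1.53 ± 0.05 (SE, edgeR adjusted p = 2.8e-12), and the level was 2.90 times as high in control. SNHG8 (ENSG00000269893, chromosome 4, 118278709 to 118285316), host of the H/ACA box snoRNA SNORA24, was at 90.8, 94.9 and 86.7 CPM in control and 32.5, 31.5 and 27.5 CPM in knockdown. It changed by a similar amount, at -1.57 ± 0.07 on the log2 scale (edgeR adjusted p = 1.7e-10). SNHG32 (ENSG00000204387, chromosome 6, 31834608 to 31839766), which lies in the major histocompatibility region and holds SNORD48 and SNORD52, was at 46.3, 46.1 and 38.9 CPM in control and 14.3, 13.7 and 13.01 CPM in knockdown. Again the groups were fully apart, at -1.68 ± 0.09 on the log2 scale (edgeR adjusted p = 1.3e-09).

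GAS5 and EPB41L4A-AS1 are both named in the literature for transcripts that accumulate when cells stop growing; both were lower in knockdown. GAS5 (ENSG00000234741, chromosome 1, 173858559 to 173868882, minus strand), whose RNA also binds the glucocorticoid receptor, was at 298, 309 and 307 CPM in control and 173, 186 and 177 CPM in knockdown. The log2 fold change was -0.77 ± 0.05 (edgeR adjusted p = 3.2e-09), with no overlap. EPB41L4A-AS1 (ENSG00000224032, chromosome 5, 112160526 to 112164818), host of SNORA13, was at 69.8, 67.4 and 68.2 CPM in control and 35.3, 34.96 and 34.9 CPM in knockdown. Its libraries were nearly equal within each group, and its log2 fold change was -0.97 ± 0.06 (edgeR adjusted p = 7.0e-09).

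A further 3 hosts fell by between 1.80 and 1.95 fold. SNHG12 (chromosome 1, 28578538 to 28583132, minus strand), which holds both C/D and H/ACA box rows, was at 37.9, 41.8 and 31.2 CPM in control and 18.03, 19.9 and 19.0 CPM in knockdown (log2 fold change -0.96 ± 0.10, edgeR adjusted p = 1.8e-06). SNHG15, host of SNORA9, was at 67.0, 63.2 and 54.8 CPM in control and 34.1, 35.7 and 32.8 CPM in knockdown (-0.85 ± 0.08, edgeR adjusted p = 4.2e-07). SNHG11, host of SNORA60 and SNORA71E, was at 18.7, 15.4 and 12.3 CPM in control and 7.67, 8.14 and 9.56 CPM in knockdown (-0.87 ± 0.15, edgeR adjusted p = 0.00018). The control libraries of SNHG11 and SNHG12 were more spread than those of SNHG1 or GAS5, but the groups did not overlap.

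ZFAS1, SNHG29 and SNHG17 fell less. ZFAS1, host of the SNORD12 family, was at 22.0, 23.5 and 22.0 CPM in control and 17.6, 17.4 and 14.4 CPM in knockdown (-0.45 ± 0.10, edgeR adjusted p = 0.0014). SNHG29, the host of SNORD49A, SNORD49B and SNORD65, was at 324, 339 and 340 CPM in control and 264, 274 and 260.0 CPM in knockdown (-0.33 ± 0.04, edgeR adjusted p = 1.7e-05). SNHG17, neighbour of SNHG11 on chromosome 20 and host of SNORA71 rows, was at 109.5, 116.6 and 104.4 CPM in control and 94.2, 91.1 and 89.1 CPM in knockdown (-0.27 ± 0.06, edgeR adjusted p = 0.00085). Each of these small falls had a full gap between the groups.

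**Figure D2:**
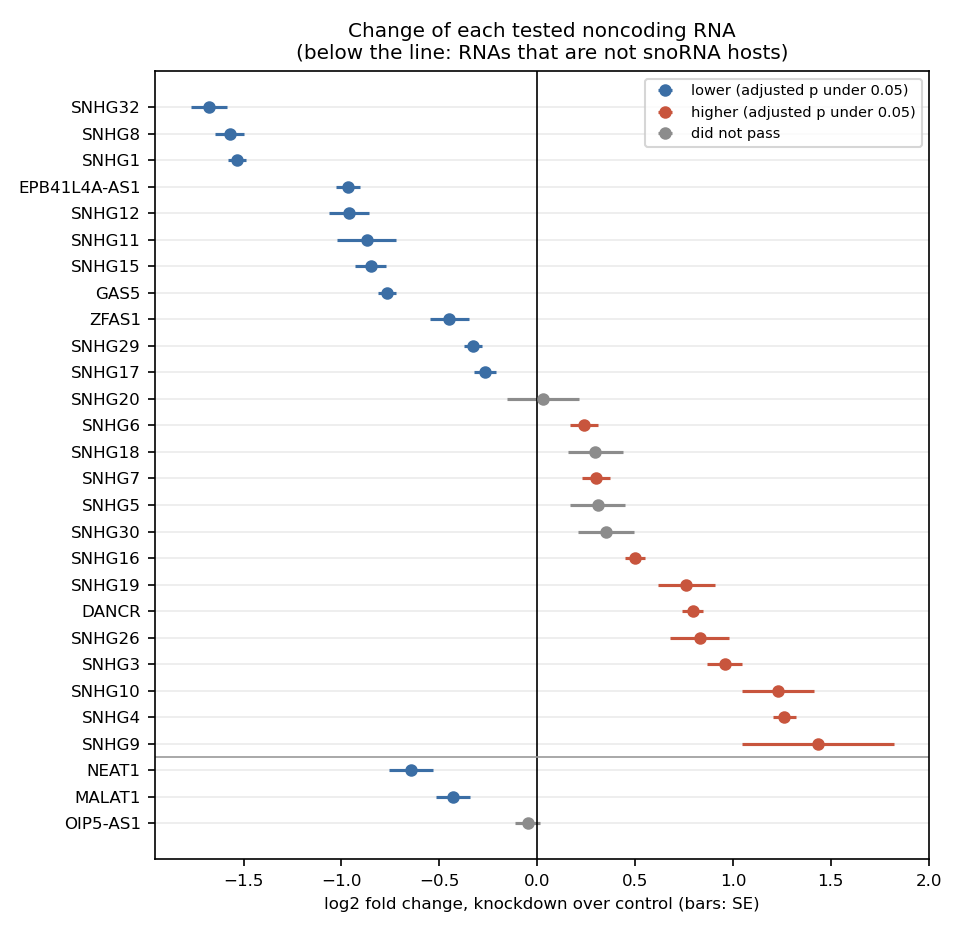
Log2 fold change of knockdown over control (points) with its SE (bars) for the 28 tested noncoding RNAs, ordered by change. Hosts run from -1.68 for SNHG32 to 1.43 for SNHG9, with 11 lower, 10 higher and 4 that did not pass; of the RNAs under the line NEAT1 and MALAT1 are lower.

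Among the hosts that rose, SNHG4, SNHG3 and DANCR were the most abundant with large changes. SNHG4 (ENSG00000281398, chromosome 5, 139274102 to 139284899), host of SNORA74A and SNORA74D, was at 49.9, 52.8 and 52.6 CPM in control and 116, 131 and 125 CPM in knockdown. All knockdown libraries were at least 2 fold above the controls, and the log2 fold change was 1.26 ± 0.06 (edgeR adjusted p = 2.1e-10). SNHG3 (ENSG00000242125, chromosome 1, 28505980 to 28510892), host of SNORA73A and SNORA73B, was at 38.4, 38.7 and 37.9 CPM in control and 61.9, 81.1 and 80.6 CPM in knockdown. Knockdown replicate 1 was lower than the other knockdown libraries but above all controls, and the log2 fold change was 0.96 ± 0.09 (edgeR adjusted p = 3.9e-07). DANCR (ENSG00000226950, chromosome 4, 52712325 to 52723623), an RNA known to hold back the differentiation of epidermal progenitors and host of SNORA26, was at 96.9, 88.6 and 87.8 CPM in control and 159.6, 157.8 and 156.5 CPM in knockdown. Its knockdown libraries were nearly equal, at 0.79 ± 0.05 on the log2 scale above control (edgeR adjusted p = 9.5e-09).

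SNHG16, SNHG7 and SNHG6 rose by smaller amounts. SNHG16, host of SNORD1A, SNORD1B and SNORD1C, was at 72.4, 75.1 and 70.9 CPM in control and 101.5, 106.0 and 101.3 CPM in knockdown (log2 fold change 0.50 ± 0.05, edgeR adjusted p = 1.5e-06). SNHG7, host of SNORA17A and SNORA17B, was at 39.2, 38.6 and 36.9 CPM in control and 46.7, 49.9 and 44.5 CPM in knockdown (0.30 ± 0.07, edgeR adjusted p = 0.0024). SNHG6, host of SNORD87, was at 48.1, 51.0 and 48.9 CPM in control and 55.9, 63.9 and 54.9 CPM in knockdown (0.24 ± 0.07, edgeR adjusted p = 0.010). The SNHG7 and SNHG6 calls were lost under scaling by totals, at 0.14 (edgeR adjusted p = 0.11) and 0.08 (edgeR adjusted p = 0.36), and that of SNHG6 also without knockdown replicate 2, at 0.17 (edgeR adjusted p = 0.063).

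The other rises were of hosts at low levels. SNHG19, host of SNORD60, was at 5.75, 6.55 and 5.40 CPM in control and 10.9, 10.5 and 8.59 CPM in knockdown (log2 fold change 0.76 ± 0.15, edgeR adjusted p = 0.00043). SNHG26, host of SNORD93, was at 7.61, 8.27 and 7.72 CPM in control and 10.5, 15.4 and 16.1 CPM in knockdown (0.83 ± 0.15, edgeR adjusted p = 0.00031), with knockdown replicate 1 the lowest of its group. The groups were apart for both. SNHG10, host of the Cajal body RNA SCARNA13, was at 3.80, 3.35 and 5.59 CPM in control and 8.62, 10.9 and 10.4 CPM in knockdown (1.23 ± 0.18, edgeR adjusted p = 4.9e-05). SNHG9, host of SNORA78, had the largest fitted rise and the least data, with 14, 17 and 9 counts in control and 52, 24 and 26 in knockdown (1.43 ± 0.39, edgeR adjusted p = 0.0061). The groups of SNHG9 did not overlap, and knockdown replicate 1 was the highest. Without it the log2 fold change was 1.03 (edgeR adjusted p = 0.035).

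The 4 tested hosts that did not pass were SNHG5, SNHG18, SNHG20 and SNHG30. SNHG5, host of SNORD50B, was at 6.09, 5.86 and 6.82 CPM in control and 7.17, 8.24 and 7.83 CPM in knockdown (log2 fold change 0.31 ± 0.14, edgeR adjusted p = 0.083). SNHG18 was at 6.75, 6.10 and 7.29 CPM in control and 8.22, 7.53 and 9.02 CPM in knockdown (0.30 ± 0.14, edgeR adjusted p = 0.092), and SNHG30 at 8.22, 7.38 and 6.39 CPM in control and 8.62, 10.5 and 8.91 CPM in knockdown (0.35 ± 0.14, edgeR adjusted p = 0.051). These 3 had a gap between the groups without passing; over all tested genes the groups were apart in 58.3%. SNHG20 was at 5.23, 4.18 and 5.44 CPM in control and 5.83, 4.22 and 5.13 CPM in knockdown, with overlapping groups (0.03 ± 0.18, edgeR adjusted p = 0.90). Without knockdown replicate 1, SNHG5 and SNHG30 passed, at 0.37 (edgeR adjusted p = 0.044) and 0.41 (edgeR adjusted p = 0.015), so that 12 hosts were higher and 11 lower.

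Of the 35 rows, 7 were too low to be tested. SNHG27 and SNHG28 held 0 counts in all 6 libraries, as did RMRP. SNHG21, SNHG22, SNHG25 and SNHG31 had between 1 and 20 counts per library, from SNHG25 at 1, 1 and 3 counts in control and 8, 5 and 5 in knockdown to SNHG31 at 10, 9 and 20 counts in control and 5, 7 and 2 in knockdown. At these counts no difference was tested.

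Among the RNAs that are not snoRNA hosts, 2 of 3 tested fell and 0 rose. Where the mean level reached 5 CPM, as for these 3, 61.0% of long noncoding RNA rows passed (28.2% higher, 32.8% lower). Beside these shares the count of 3 RNAs is no result about them. NEAT1 (ENSG00000245532, chromosome 11, 65422774 to 65445540), the scaffold of nuclear bodies called paraspeckles, was at 17.4, 18.2 and 15.6 CPM in control and 11.8, 11.1 and 9.83 CPM in knockdown. The groups were apart, at -0.64 ± 0.11 on the log2 scale (edgeR adjusted p = 0.00018); its long isoform ends without a poly-A tail. MALAT1 (ENSG00000251562, chromosome 11, 65497688 to 65506516), an RNA of nuclear speckles whose mature end also lacks a tail, was at 93.6, 83.5 and 85.7 CPM in control and 76.9, 58.8 and 59.5 CPM in knockdown. Its groups did not overlap, knockdown replicate 1 was the closest to control, and the log2 fold change was -0.43 ± 0.09 (edgeR adjusted p = 0.00076). OIP5-AS1 (ENSG00000247556, chromosome 15, 41283990 to 41309737), a cytoplasmic RNA with a site for the microRNA miR-7, was at 145, 163 and 167 CPM in control and 142, 166 and 152 CPM in knockdown. Its groups overlapped and it did not pass (-0.05 ± 0.06, edgeR adjusted p = 0.56); with total counts only it passed as lower, at -0.21 (edgeR adjusted p = 0.015).

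TUG1, an abundant RNA outside the rule because of its deposited type, rose. It was at 185, 198 and 198 CPM in control and 249, 268 and 274 CPM in knockdown, with log2 fold change 0.44 ± 0.05 (edgeR adjusted p = 3.1e-06). The hosts thus moved in both directions over a range from -1.68 to 1.43, and the other RNAs, TUG1 included, from -0.64 to 0.44. With 3 tested members in the second group, the groups are described side by side and their difference was not tested.

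Hosts with and without a tract at the annotated start changed in both directions. Of 12 tested hosts with a tract in the RefSeq window, 5 rose, 5 fell and 2 did not pass, with log2 fold changes from -1.68 (SNHG32) to 1.26 (SNHG4) and a median of 0.30. Of 10 tested hosts with a window and no tract, 3 rose, 5 fell and 2 did not pass, from -1.53 (SNHG1) to 1.23 (SNHG10), with a median of -0.15. These 10 include SNHG1 and SNHG3, whose windows do not hold the starts of their deposited rows. By GENCODE 29 starts, 5 hosts with a tract transcript rose and 7 fell, while 5 without one rose and 4 fell. The printed starts show this pairwise: SNHG12 and SNHG4 both begin with a long run of C and T at the annotated start and changed in opposite directions, as did ZFAS1 and SNHG19. These are counts of few hosts and were not tested.

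Hosts of both main snoRNA classes also changed in both directions. In the deposited annotation 61 snoRNA or scaRNA rows lay inside 30 of the hosts on the same strand, 26 of the C/D box class (symbols SNORD, guides of ribose methylation) and 26 of the H/ACA class (SNORA, guides of pseudouridylation), 4 scaRNA rows and 5 with no symbol. Of 11 tested hosts with only C/D box rows, 4 rose and 4 fell, with a median log2 fold change of 0.30. Of 10 with only H/ACA rows, 5 rose and 5 fell, with a median of 0.02. The largest fall, that of SNHG32, was in a C/D host, and the second, that of SNHG8, in an H/ACA host. GAS5, which fell, had no snoRNA row inside it in the table as analysed here and is therefore in none of these class counts.

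**Figure D3:**
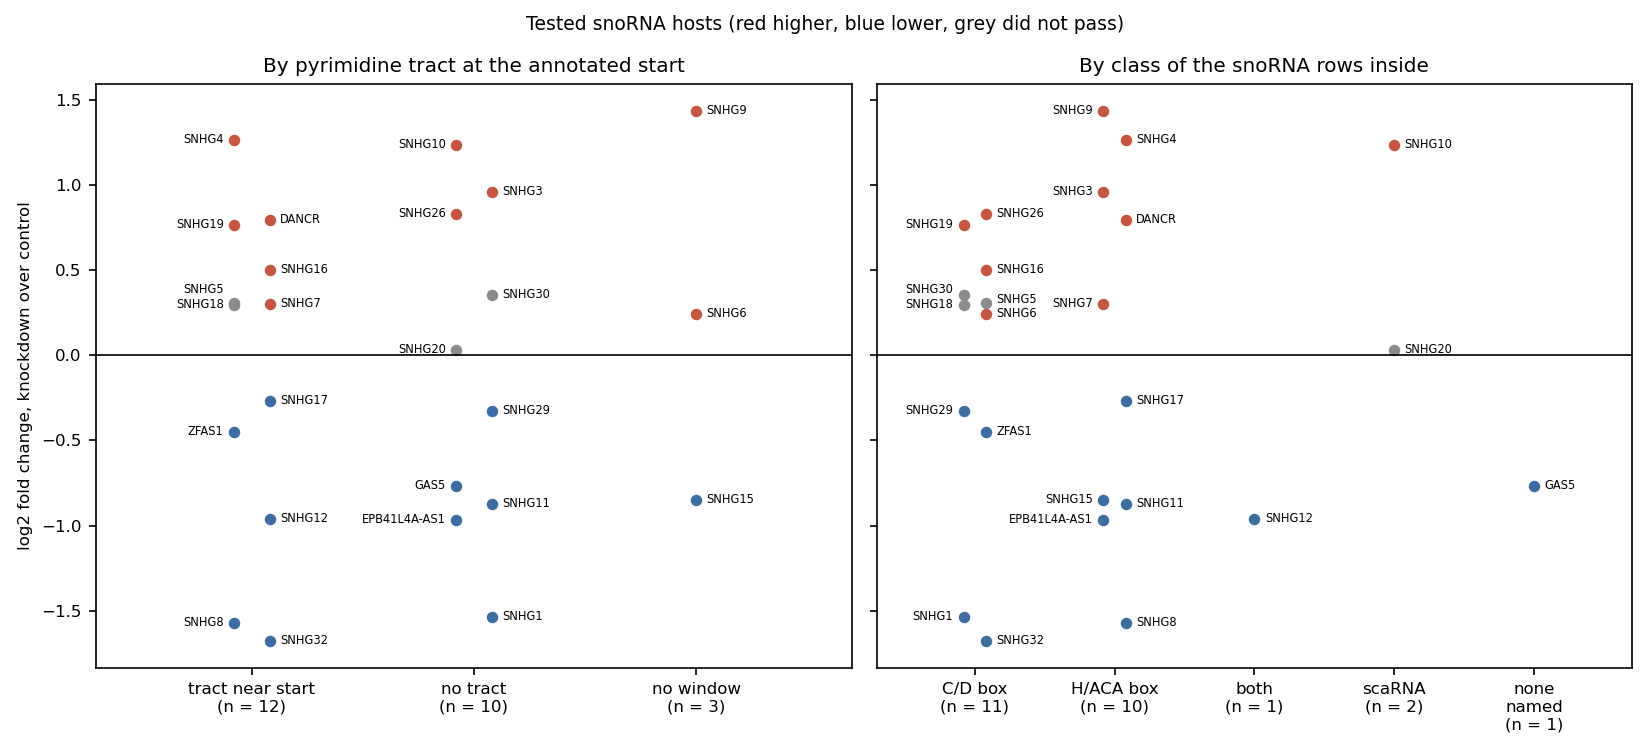
Log2 fold change of knockdown over control for each tested host (points; red higher, blue lower, grey did not pass), split by the tract near the RefSeq start (left) and by the class of the snoRNA rows inside the host (right). Points spread on both sides of 0 for the 12 hosts with a tract, the 10 without, the 11 C/D box hosts and the 10 H/ACA hosts.

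The snoRNA rows themselves were nearly empty. Of the 61 rows inside hosts 50 held 0 counts in all 6 libraries, and the other 11 held 389 counts over all libraries together. The largest totals were those of SNORD104 in SNHG25, with 15, 16 and 20 counts in control and 11, 16 and 20 in knockdown, and of SNORA73B in SNHG3, with 10, 13 and 6 counts in control and 9, 36 and 21 in knockdown. SNORA71B in SNHG17 held 9, 14 and 12 counts in control and 25, 22 and 9 in knockdown. The groups overlapped for each of these 3 rows. The spliced host RNA and the snoRNA come from the same precursor but have separate fates, so the host values above say nothing of how much snoRNA the cells held.

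Many hosts share their place with another gene, and the counting options are not given, so both values are set side by side. Rows that overlap a tested member or start within 1000 bases of it on the other strand gave 22 pairs for 19 members. In 8 of 18 overlapping pairs both genes passed in the same direction, in 4 they passed in opposite directions, and in 6 at least 1 of them did not pass. For the pairs that start close together on opposite strands, these counts were 3, 1 and 2 of 6. Of these 6 pairs, ZBTB37 with GAS5 and ZNFX1 with ZFAS1 also overlap and are in both counts. Over all genes 26.1% were higher and 25.6% lower, and 33.8% and 28.1% where the mean reached 5 CPM. Pairs called in the same direction therefore occur without any link between neighbours, and the pair counts were not tested against these shares.

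SNHG1 and SLC3A2 start 51 bases apart on opposite strands of chromosome 11, and both fell. SLC3A2, the heavy chain of amino acid transporters at the cell surface, went from 754 ± 20.9 to 456 ± 24.0 CPM (SD over 3 libraries each), with log2 fold change -0.73 ± 0.05 (edgeR adjusted p = 7.4e-09). ZFAS1 and ZNFX1, a helicase gene, start 248 bases apart and went in opposite directions, with ZNFX1 rising by 0.90 ± 0.08 (edgeR adjusted p = 2.1e-07). SNHG19 and TRAF7, 340 bases apart, both rose, TRAF7 by 0.32 ± 0.05 (edgeR adjusted p = 6.3e-05). SNHG9 starts 118 bases from RPS2, a ribosomal protein gene at 2341 CPM in control, which rose by 0.16 ± 0.05 (edgeR adjusted p = 0.0075), which did not pass when only totals were used (0.01, edgeR adjusted p = 0.92). GAS5 and ZBTB37, 800 bases apart, differed, since ZBTB37 did not pass at -0.004 ± 0.09 (edgeR adjusted p = 0.97). SEMA5A beside SNHG18 did not pass either, at -0.17 ± 0.08 (edgeR adjusted p = 0.098), but passed as lower with total counts only (-0.33, edgeR adjusted p = 0.0037) and with upper-quartile factors (-0.22, edgeR adjusted p = 0.044).

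SNHG3 lies inside RCC1 on the same strand, and the starts are 37 bases apart. RCC1, the nucleotide exchange factor of the RAN GTPase, went from 71.6 ± 3.78 to 141 ± 3.69 CPM, with log2 fold change 0.98 ± 0.05 (edgeR adjusted p = 1.4e-09). The per-library order differed, since in knockdown replicate 1 RCC1 was at its highest level of the group, 145 CPM against 139 and 138, and SNHG3 at its lowest. How reads of the shared part were assigned is not known here. SNHG20 overlaps SEC14L1 on the same strand, which did not pass at -0.01 ± 0.05 (edgeR adjusted p = 0.91) but did with total counts only (-0.17, edgeR adjusted p = 0.019). DANCR overlaps LINC01618, which did not pass at 0.08 ± 0.35 (edgeR adjusted p = 0.86). SNHG4 overlaps a MATR3 row on the same strand that was too low to be tested.

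Of overlapping genes on the opposite strand, EPB41L4A fell by 1.40 ± 0.16 (edgeR adjusted p = 3.1e-06) beside the fall of EPB41L4A-AS1, and LRRC75A fell by 0.71 ± 0.14 (edgeR adjusted p = 0.00067) beside SNHG29. PRSS12 beside SNHG8 fell by 0.26 ± 0.10 with an edgeR adjusted p of 0.0498, a call that 12 of 15 alternatives ended. Rises that went with rising hosts were those of DIPK1B by 0.37 ± 0.07 (edgeR adjusted p = 0.00025) at SNHG7, ERVMER34-1 by 0.58 ± 0.11 (edgeR adjusted p = 0.00051) at DANCR and GLRX5 by 0.14 ± 0.05 (edgeR adjusted p = 0.027) at SNHG10, the last of which did not pass under total counts (-0.01, edgeR adjusted p = 0.83), upper-quartile factors (0.10, edgeR adjusted p = 0.11) or no filter (0.15, edgeR adjusted p = 0.053), nor without control replicate 2 (0.15, edgeR adjusted p = 0.078), control replicate 3 (0.14, edgeR adjusted p = 0.060) or knockdown replicate 3 (0.14, edgeR adjusted p = 0.072). In opposite directions to their hosts went SIL1, which fell by 0.68 ± 0.17 (edgeR adjusted p = 0.0037) over SNHG4, and MCMDC2, which fell by 1.70 ± 0.37 (edgeR adjusted p = 0.0012) from a low level over SNHG6. TRNAU1AP beside SNHG12 (0.09 ± 0.10, edgeR adjusted p = 0.45) and OIP5 beside OIP5-AS1 (0.15 ± 0.09, edgeR adjusted p = 0.19) did not pass.

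**Figure D4:**
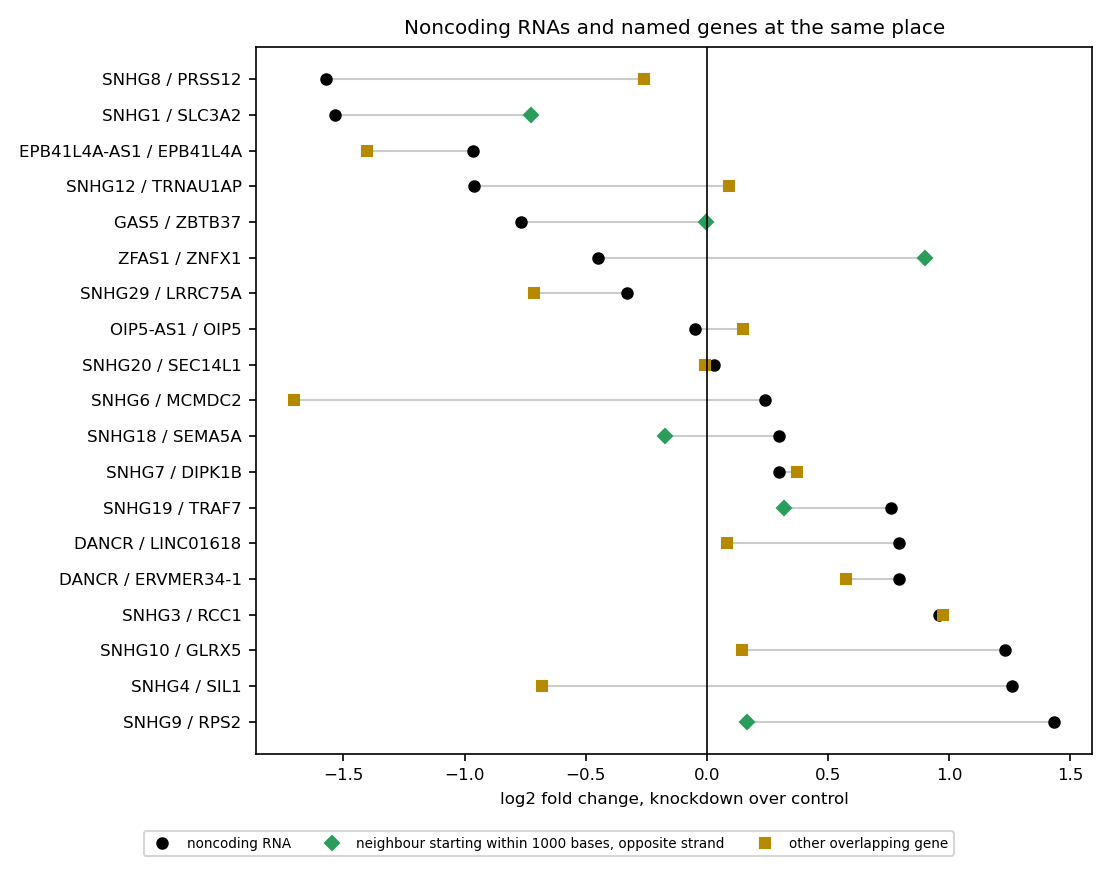
Log2 fold change of knockdown over control for noncoding RNAs (black) and for the genes named in the text that overlap them or start within 1000 bases on the opposite strand (green and yellow), joined by lines. SNHG1 and SLC3A2 are both lower, SNHG3 and RCC1 lie side by side, and ZFAS1 and ZNFX1 lie on opposite sides of 0.

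Protein-coding messages known for a TOP start were mostly higher. Of 77 cytosolic ribosomal protein genes 70 rose (90.9%) and 0 fell, with a median log2 fold change of 0.26. With total counts only 33 rose and 2 fell. Among all genes 26.1% were higher, and 33.8% where the mean reached 5 CPM. RPL7A (1.24 ± 0.05, edgeR adjusted p = 8.4e-11), RPL23A (0.77 ± 0.09, edgeR adjusted p = 3.6e-06) and RPL23 (0.72 ± 0.04, edgeR adjusted p = 4.0e-09) rose the most; such genes have many processed copies in the genome, so single values are uncertain. Of TOP messages outside the ribosome 16 of 16 tested rose, with a median of 0.33, and 9 with total counts only. The elongation factor subunit EEF1D rose by 0.65 ± 0.04 (edgeR adjusted p = 1.3e-08), the elongation factor EEF2 by 0.55 ± 0.04 (edgeR adjusted p = 2.1e-08) and the initiation factor EIF4B by 0.53 ± 0.05 (edgeR adjusted p = 5.5e-07). The remaining TOP gene of the list, EEF1G, held 0 counts in all 6 libraries. Since the counting options are not given, this does not show that the gene was silent, and the reason was not tested.

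Protein-coding genes that hold a uniquely named snoRNA row were mostly higher. Of 158 such rows tested 88 rose (55.7%), 37 fell (23.4%) and 33 did not pass, with a median log2 fold change of 0.17. With total counts only 51 rose and 49 fell. Among all genes 26.1% were higher and 25.6% lower, and 33.8% and 28.1% where the mean reached 5 CPM. The share lower was thus near that of all genes. Of these 158, 26 were ribosomal protein genes, where 24 rose and 0 fell. Among the other 132, 64 rose and 37 fell, with a median of 0.15. These 132 include EEF2, EEF1B2, TPT1 and RACK1, which are also in the list of TOP messages outside the ribosome. They also include RCC1 and SEC14L1, whose snoRNA or scaRNA rows are the same as those inside SNHG3 and SNHG20. A tested MATR3 row, which did not pass, was taken in by its symbol and is not the row that overlaps SNHG4. HSPA8, the constitutive HSP70 chaperone and host of SNORD14C, SNORD14D and SNORD14E, rose from 264 ± 3.41 to 2468 ± 87.4 CPM (log2 fold change 3.23 ± 0.04, edgeR adjusted p = 1.7e-16). CCNB1IP1 fell by 0.94 ± 0.05 (edgeR adjusted p = 5.0e-10), ZBED3 by 0.90 ± 0.08 (edgeR adjusted p = 3.4e-07) and OVOL2 by 0.82 ± 0.14 (edgeR adjusted p = 0.00012). MAGED4 passed at 2.28 ± 0.79 (edgeR adjusted p = 0.025), but with knockdown replicate 3 left out the value was 0.31 (edgeR adjusted p = 0.72). It also did not pass without control replicate 1 (1.98, edgeR adjusted p = 0.12) or control replicate 2 (2.001, edgeR adjusted p = 0.098), nor with DESeq2 (2.32, DESeq2 adjusted p = 0.11) or limma-voom (1.56, limma adjusted p = 0.13).

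Of 17 tested genes for core and assembly proteins of snoRNA particles 6 rose (35.3%) and 3 fell (17.6%). Beside 33.8% and 28.1% of all genes with a mean of 5 CPM or more, these shares are no result about the list. The median was 0.10 and, with total counts only, 7 were lower. Of the 17 genes, NOP56, NOP58 and DKC1 also hold snoRNA rows and are in both lists. NOP58, a core protein of C/D particles, fell by 0.54 ± 0.05 (edgeR adjusted p = 4.9e-07), the assembly factor ZNHIT6 by 0.37 ± 0.07 (edgeR adjusted p = 0.00047) and DKC1, the pseudouridine synthase of H/ACA particles, by 0.22 ± 0.05 (edgeR adjusted p = 0.0016). The assembly factor SHQ1 rose by 0.61 ± 0.08 (edgeR adjusted p = 1.3e-05), and the H/ACA proteins NHP2 by 0.42 ± 0.06 (edgeR adjusted p = 1.6e-05) and NOP10 by 0.40 ± 0.05 (edgeR adjusted p = 1.2e-05).

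Genes of nonsense-mediated decay and of the exon junction complex went both ways, with 6 of 18 higher (33.3%), 9 of 18 lower and a median of -0.13. With total counts only 4 were higher and 11 lower. Among all genes with a mean of 5 CPM or more, 33.8% were higher and 28.1% lower. The share higher was thus near that of all such genes and is no result about these genes. The count lower was not tested against the share of all genes. PNRC2 rose by 1.07 ± 0.055 (edgeR adjusted p = 6.2e-10), SMG8 by 0.53 ± 0.09 (edgeR adjusted p = 0.00012) and EIF4A3, the helicase of the exon junction complex, by 0.42 ± 0.05 (edgeR adjusted p = 3.4e-06). SMG9, MAGOHB and the central decay factor UPF2 fell by 0.48, 0.47 and 0.37 (edgeR adjusted p = 0.00020, 0.00047 and 4.8e-05). Of 18 regulators of TOP messages 8 rose (44.4%) and 6 fell (33.3%), with a median of 0.11 and, with total counts only, 5 higher. Beside 33.8% and 28.1% of all genes with a mean of 5 CPM or more, these counts are no result about the list. The initiation factor EIF4G1 rose by 0.92 ± 0.04 (edgeR adjusted p = 2.6e-10), AKT1S1 by 0.73 ± 0.07 (edgeR adjusted p = 2.6e-07) and TSC1, an upstream inhibitor of mTOR complex 1, by 0.44 ± 0.07 (edgeR adjusted p = 6.3e-05). DDIT4, another inhibitor of that complex, fell by 2.35 ± 0.13 (edgeR adjusted p = 8.8e-10), the translation repressor EIF4EBP1 by 0.59 ± 0.06 (edgeR adjusted p = 1.4e-06) and LARP4 by 0.33 ± 0.05 (edgeR adjusted p = 6.3e-05).

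Messages for proteins that share nuclear bodies with NEAT1 and MALAT1 were mostly higher while these RNAs were lower. Protein levels were not measured. Of 12 genes for paraspeckle proteins 10 rose (83.3%) and 1 fell (8.33%), with a median of 0.27 and, with total counts only, 6 higher. Among all genes with a mean of 5 CPM or more, 33.8% were higher and 28.1% lower. TARDBP rose by 0.78 ± 0.05 (edgeR adjusted p = 1.0e-08), CPSF6 by 0.48 ± 0.05 (edgeR adjusted p = 1.3e-06) and HNRNPK by 0.42 ± 0.04 (edgeR adjusted p = 5.5e-07), and PSPC1 fell by 0.51 ± 0.06 (edgeR adjusted p = 7.7e-06). Of 12 genes for nuclear speckle proteins 9 rose (75.0%) and 2 fell (16.7%), with a median of 0.20 and, with total counts only, 5 higher. The counts of both lists were not tested against the shares of all genes. The splicing factors SRSF2 and SRSF5 rose by 0.93 and 0.61 and the speckle scaffold SON by 0.46, while SRSF7 and SRSF3 fell by 0.30 and 0.21 (edgeR adjusted p = 8.2e-10, 7.8e-08, 3.0e-07, 0.00015 and 0.0028, in that order).

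For RMRP, which held no counts, only the messages for proteins of RNase MRP and RNase P can be described. Of 11 such genes 4 rose (36.4%) and 2 fell (18.2%), beside 26.1% and 25.6% of all genes, or 33.8% and 28.1% of those with a mean of 5 CPM or more, with a median of 0.15. With total counts only 2 rose. The count of the list is no result about it. POP1 rose by 0.97 ± 0.10 (edgeR adjusted p = 1.1e-06), POP7 by 0.31 ± 0.06 (edgeR adjusted p = 0.00023) and POP4 by 0.31 ± 0.09 (edgeR adjusted p = 0.012), while RPP38 fell by 0.44 ± 0.09 (edgeR adjusted p = 0.00071) and RPP30 by 0.22 ± 0.08 (edgeR adjusted p = 0.026). POP4 did not pass when only totals were used (0.15, edgeR adjusted p = 0.18). RPP30 did not pass once control replicate 2 was left out (-0.22, edgeR adjusted p = 0.077), nor without control replicate 3 (-0.16, edgeR adjusted p = 0.14) or knockdown replicate 2 (-0.23, edgeR adjusted p = 0.051).

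**Figure D5:**
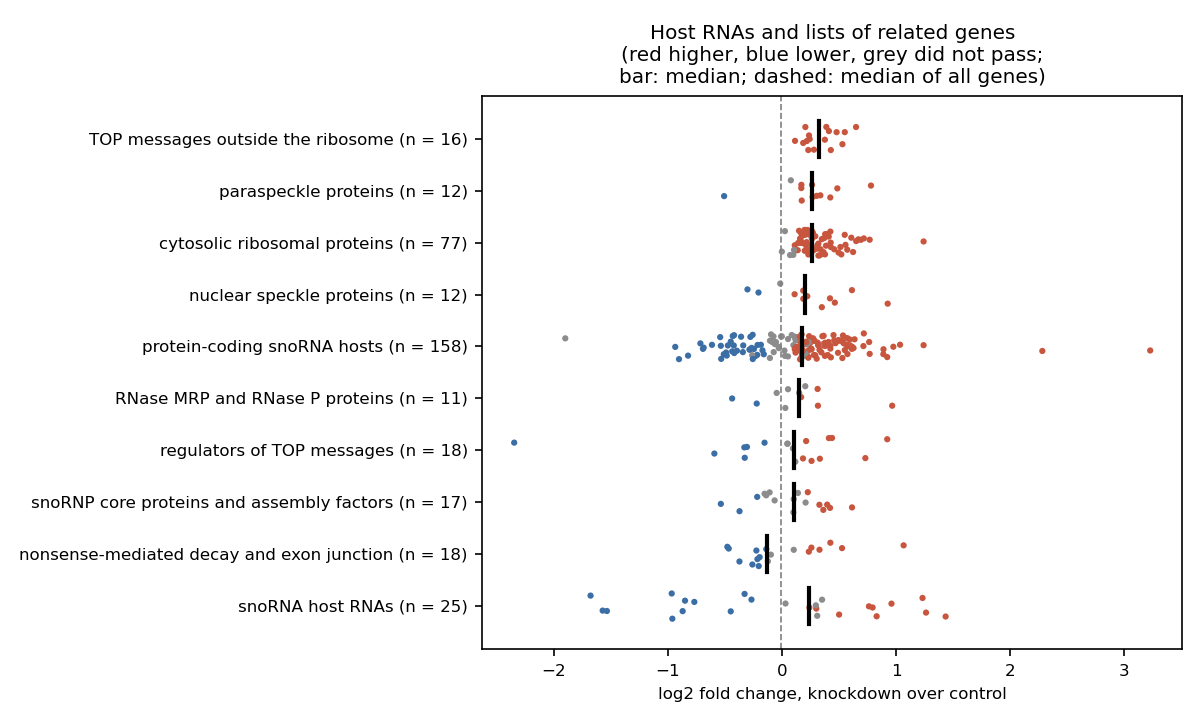
Log2 fold change of knockdown over control for each tested gene (points; red higher, blue lower, grey did not pass) of the noncoding snoRNA hosts and of 9 lists of related protein-coding genes, with list medians as bars and the median of all genes as a dashed line. Genes of the 2 TOP lists lie almost wholly above 0, while the 25 host RNAs spread from -1.68 to 1.43.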

How the data were processed

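RNA of 3 control and 3 SAMD4A knockdown libraries of H7 cells was sequenced from TruSeq Stranded mRNA libraries, per the labels' protocols. The authors' deposited table holds whole-number counts per gene; HISAT2, HTSeq and GRCh38 are named in the submitters' processing notes, and the sources used here give no versions or counting options. Gene coordinates are GRCh38.p13, per the file headers.

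Counts were tested with edgeR 4.0.16 (R 4.3.3; TMM factors, filterByExpr, two-sided quasi-likelihood test); p-values were adjusted by the Benjamini-Hochberg method across 17258 genes, with a threshold of 0.05. The SE is the size of the log2 fold change divided by the square root of F. Depth was 19270688 to 21355171 counts per library. Groups came from the sample titles. The fit was tested on simulated data. Alternatives were other scaling factors and filters, DESeq2 1.42.0, limma-voom 3.58.1, a replicate block and each library left out. Start windows came from RefSeq (GRCh38.p14) and GENCODE 29; the GENCODE check was added after the data were seen. The members and lists were chosen with earlier results of these data known. Named were all members, the tested overlapping or close genes (some are counted among the pairs but not reported here), SAMD4A, TUG1, and for each list up to 3 genes with the largest called rise and fall; EEF1G was named after its values were seen.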

Additional observations from a re-analysis of the deposited data

How the results depend on the processing

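Of 28 tested noncoding RNAs, 22 kept their direction and side of the threshold in all 15 alternatives to the edgeR fit. Leaving out 1 library at a time gave 7409 to 9629 genes called, 9 to 12 hosts higher and 11 to 12 lower. With the C required exactly at the annotated start, 7 hosts in place of 13 held a tract. The replicate block gave 8434 genes called, 10 hosts higher and 11 lower. No pairing by number was seen, since deviations of same-numbered libraries correlated at -0.017, 0.001 and -0.042. These values cannot settle whether the numbers stand for shared cultures or batches, which the labels do not say. Values near 0 changed sign. With total counts only, these were SNHG20 (-0.1278), GLRX5 (-0.0143), LINC01618 (-0.0736), OIP5 (-0.0095) and TRNAU1AP (-0.0649), and with upper-quartile factors SNHG20 (-0.0123). ZBTB37 changed sign with median-ratio factors (0.0011), no filter (0.0025), DESeq2 (0.0011), limma-voom (0.0044) and the replicate block (0.0025). With 1 library left out at a time, values that changed sign ran from -0.1066 to 0.0082 for OIP5-AS1, -0.0815 to 0.1524 for SNHG20, -0.2793 to 0.3668 for LINC01618, -0.0337 to 0.0305 for SEC14L1 and -0.1027 to 0.0736 for ZBTB37. SNHG30 passed with median-ratio factors (0.36, edgeR adjusted p = 0.047) and without control replicate 1 (0.44, edgeR adjusted p = 0.039). The cause of these shifts was not tested. Low counts limit SNHG9 and the 4 untested hosts with counts. Why RMRP and most snoRNA rows held 0 counts was not tested.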
